A study of Mus musculus with 130 samples.

Results

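The 10 genes described here, Stab2, Lyve1, Fcgr2b, Clec4g, Oit3, Kdr, Flt4, Pecam1, Wnt2 and Rspo3, are known for their expression in the endothelial cells that line the liver sinusoids. They were taken as a list of symbols and matched to Ensembl identifiers, and all 10 were found among 35274 genes in a diet study and among 35711 genes in a strain panel. Messenger RNA of whole liver was sequenced from male mice. The diet study used C57BL/6J mice on 5 diets, 3 mice on each: chow, a diet with sufficient iron at 50 ppm, a diet with elevated iron at 500 ppm, 2% carbonyl iron (20000 ppm), and the same 2% carbonyl iron with cellulose as the source of fiber. Mice of the panel were fed chow over 4 weeks, followed by 6 weeks on a high-iron diet, given in the labels as 2% carbonyl iron. Its 114 strains came from recombinant inbred families (56 BXD, 20 AXB/BXA, 4 BXH, 3 CXB) or were inbred strains outside these families (31). Each strain is 1 mouse, apart from 129X1/SvJ with 2, so strain and mouse cannot be told apart. The panel has no group kept without the iron diet, and the labels give no ages and no batches.

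Sinusoidal endothelial cells form a wall with open pores and no continuous basement membrane, and they clear waste macromolecules from blood through scavenger receptors. The same cells sense and answer vascular growth factors, release the ligands BMP6 and BMP2 that raise hepcidin in hepatocytes when iron is high, and release Wnt ligands and R-spondin that keep the gene program of hepatocytes around the central vein. The 10 genes cover these roles: Stab2, Lyve1, Fcgr2b and Clec4g encode endocytic, hyaluronan, immune complex and lectin receptors, Oit3 encodes a secreted or membrane-bound protein typical of these cells, Kdr and Flt4 encode the VEGF receptors 2 and 3, Pecam1 encodes the junctional protein CD31 of all endothelium, and Wnt2 and Rspo3 encode secreted signals.

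In the GENCODE M21 annotation of GRCm38, the build the submitters' processing notes give as mm10, all 10 are protein-coding. Stab2 lies at chr10:86841198-87008025, Oit3 at chr10:59422958-59441778 and Rspo3 at chr10:29452416-29535867. Lyve1 lies at chr7:110850607-110863239, Fcgr2b at chr1:170958617-170976547 and Clec4g at chr8:3707064-3720651. Kdr lies at chr5:75932827-75978458, Flt4 at chr11:49609263-49652739, Pecam1 at chr11:106654217-106750628 and Wnt2 at chr6:17988940-18030585. Flt4 is on the plus strand and the other 9 are on the minus strand. Annotated genes overlap 4 of them on the opposite strand: 5 lie over Stab2 (Gm16268, Gm16280, Gm16270, Gm16271 and Gm16269), and 1 each over Fcgr2b (Gm38204), Clec4g (Gm16553) and Rspo3 (Gm48159). Gm20276 lies on the same strand as Rspo3. The library kit named in the labels keeps strand, but the strand setting of the counting is not given in the sources used here, so reads of these overlapping genes may be shared. Fcgr2b also has close paralogs in Fcgr3 and Fcgr4.

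The bases just before the gene are printed for 3 members whose values are described most: Stab2, which was the member that passed the test between diets, Kdr, which came nearest to it after Stab2 among the members that were higher, and Clec4g, which was among the most abundant per length. The windows are those of RefSeq on GRCm38.p6, matched for 6 of the 10 members and cut to the stretch upstream of annotated exons. They read 5′ to 3′ on the minus strand, and capitals mark matches to the letters searched. The stretches are chr10:87008026-87008192 for Stab2, chr5:75978459-75978705 for Kdr and chr8:3720652-3720901 for Clec4g.
Stab2: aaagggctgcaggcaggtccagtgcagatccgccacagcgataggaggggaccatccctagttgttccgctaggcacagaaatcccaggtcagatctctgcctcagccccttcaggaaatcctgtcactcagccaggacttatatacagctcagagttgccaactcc
Kdr: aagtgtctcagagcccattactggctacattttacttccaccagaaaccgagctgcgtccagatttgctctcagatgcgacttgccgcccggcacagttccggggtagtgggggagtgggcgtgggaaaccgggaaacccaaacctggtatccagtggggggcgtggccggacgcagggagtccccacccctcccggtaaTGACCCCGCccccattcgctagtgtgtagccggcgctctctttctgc
Clec4g: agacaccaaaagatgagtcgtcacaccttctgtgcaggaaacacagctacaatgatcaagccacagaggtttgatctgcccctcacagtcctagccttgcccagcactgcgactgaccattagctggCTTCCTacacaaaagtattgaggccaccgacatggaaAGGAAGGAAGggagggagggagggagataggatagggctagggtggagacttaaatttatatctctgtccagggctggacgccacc
The letters searched, on both strands, were AGGAAG or CGGAAG for ETS factors, AGATAA or TGATAA for GATA factors, and TGACNNNGC for the antioxidant response element. Of 32851 RefSeq windows of 250 bases before a gene's start, 39.2% held the ETS letters, 16.6% the GATA letters and 10.2% the antioxidant letters. Clec4g held 3 ETS matches, of which 2 overlap, Kdr held 1 antioxidant match, and the 250 bases before Stab2 held 1 ETS match (CTTCCT on the opposite strand, 40 bases before the start), which lies outside the printed stretch of 167 bases. A match of letters is a description and not a binding site.

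Levels between genes were compared in TPM, which is per transcript length. The diet group means gave nearly the same order on all 5 diets. Pecam1 and Clec4g led, with 30.99 ± 3.26 TPM and 31.98 ± 3.77 TPM (SD, n = 3) on 2% iron, and their ranges overlapped on every diet. Fcgr2b came next at 25.95 ± 3.70 TPM on that diet, then Stab2 at 22.5 ± 5.55 TPM, Oit3 at 13.6 ± 3.17 TPM and Kdr at 11.3 ± 0.422 TPM. Flt4 at 5.001 ± 0.343 TPM and Lyve1 at 3.49 ± 1.12 TPM had overlapping ranges on every diet. Lyve1 was above Flt4 on the 50 ppm and 500 ppm diets and below it on the other 3. Rspo3 at 1.36 ± 0.131 TPM and Wnt2 at 1.22 ± 0.0875 TPM were the least abundant. Over the 114 strains Clec4g had the highest median at 34.3 TPM and Wnt2 the lowest at 1.13 TPM, and Fcgr2b at 31.1 TPM stood above Pecam1 at 26.4 TPM. The 2 studies were deposited as separate tables, so their levels are set side by side only.

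The diet study asked how the liver answers iron in the food. Values are given in CPM, counts scaled to the library total and its TMM factor, and a gene was called where edgeR's quasi-likelihood test gave a Benjamini-Hochberg adjusted p under 0.05 over all 13560 genes tested. Library totals ran from 10.4 to 20.4 M counts (M for mega) for the diets and from 9.41 to 20.6 M counts for the strains. Behind the members' values in a diet library stood 506 to 1625 counts for Stab2, 76 to 260 for Lyve1, 40 to 97 for Rspo3 and 6 to 50 for Wnt2. In the panel, the library labelled BXD65/RwwJ had a summed level of 3.86 CPM for Y-linked genes while the other 114 libraries had 124 to 313 CPM, so 1 library does not match the male label. The labels number no replicates and tie none to a litter or cage. The tests set differences between diets against the spread between mice of a diet. A litter or cage shared within a diet cannot be told apart from the diet. In whole liver, fewer cells of a type and less RNA per cell cannot be told apart.

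Stab2, the scavenger receptor stabilin-2 that clears hyaluronan, was the member that rose on 2% iron. The 3 mice on 2% iron had 116, 93.1 and 94.7 CPM, and the 3 mice on 50 ppm had 49.04, 55.5 and 70.1 CPM. The mice on 2% iron with cellulose had 92.6, 75.3 and 125 CPM, those on 500 ppm 56.6, 74.7 and 56.95 CPM, and those on chow 69.1, 57.7 and 65.1 CPM. Each of the 6 mice on 2% iron, with or without cellulose, stood above each of the 9 other mice, with the nearest values at 75.3 and 74.7 CPM. Against 50 ppm, Stab2 was 1.74-fold higher on 2% iron (log2 0.80, SE 0.18, adjusted p = 0.0104, edgeR). Against 500 ppm the log2 difference was 0.69 (adjusted p = 0.0262), against chow 0.66 (adjusted p = 0.0181), and for cellulose against 50 ppm 0.75 (adjusted p = 0.00809). These contrasts share mice, so they are not separate evidence. The call against 500 ppm was lost with limma on log2(TPM + 1), at an adjusted p of 0.101, and on log2(TPM + 0.1), at 0.107. It was also lost without 2% replicate 1 (0.107), 2% replicate 3 (0.054), 500 ppm replicate 1 (0.114) or 500 ppm replicate 3 (0.105). The call against 50 ppm was lost without 50 ppm replicate 1 (adjusted p = 0.0601), and that against chow without 2% replicate 1 (0.0762) or chow replicate 2 (0.0765).

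Of the 10 members, 1 was called in 2% iron against 50 ppm, where the share of all genes was 15.7% (8.52% up, 7.17% down), so the members' share was not above the background. The groups of 3 did not overlap for 6 of the 10 members, 5 higher and 1 lower, while over all genes this held for 36.8% (19.2% higher, 17.7% lower). The median log2 change of the members was 0.25, beside 0.01 over all genes. Of the members, 8 had a higher mean on 2% iron, and Lyve1 and Rspo3 had a lower one.

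**Figure D1:**
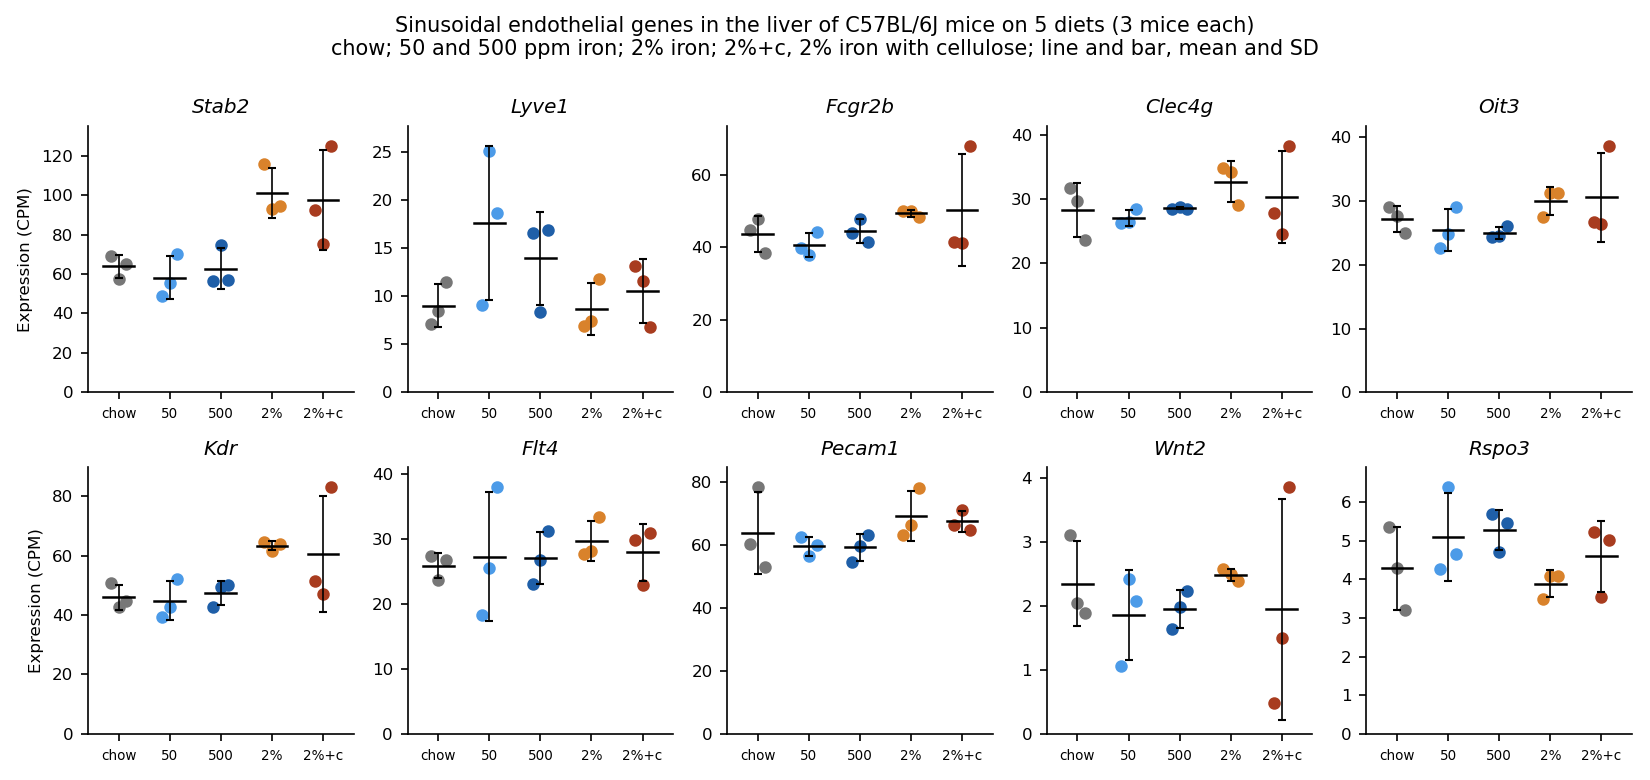
Expression in CPM (vertical axis, from 0) of the 10 genes in each of 15 C57BL/6J mice on 5 diets, with the mean and SD of each group of 3. For Stab2, all 6 mice on 2% iron sit above all 9 others, while for each other gene at least 1 of the 2% groups overlaps with another diet. For Kdr and Fcgr2b the 2% group without cellulose sits above all 9, and the cellulose group overlaps with them.

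Lyve1 encodes a hyaluronan receptor of lymphatic vessels that sinusoidal endothelium also carries. It had 6.88, 7.38 and 11.8 CPM on 2% iron and 9.11, 25.1 and 18.6 CPM on 50 ppm. On 2% iron with cellulose it had 13.2, 11.6 and 6.78 CPM, on 500 ppm 16.6, 8.38 and 16.9 CPM, and on chow 7.15, 8.48 and 11.5 CPM. The 50 ppm and 500 ppm groups each held 2 mice above 16 CPM and 1 mouse below 10 CPM, and the lower mouse of each overlapped with the 2% groups. The log2 difference of 2% iron from 50 ppm was -1.02 (SE 0.38, adjusted p = 0.0827, edgeR), which was not called. It was called by DESeq2 (adjusted p = 0.038) and without 50 ppm replicate 1 (0.036), the mouse with 9.11 CPM. Against chow, whose mice had levels like the 2% mice, the log2 difference was -0.07 and its sign turned with limma on TPM.

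Fcgr2b encodes the inhibitory Fc gamma receptor that takes up immune complexes, and Clec4g the lectin LSECtin. Fcgr2b had 50.1, 49.9 and 48.2 CPM on 2% iron and 39.8, 37.8 and 44.3 CPM on 50 ppm. Clec4g had 34.8, 34.1 and 29.01 CPM against 26.3, 26.4 and 28.5 CPM in the same groups. Neither pair of groups overlapped, but neither difference was called: Fcgr2b differed by a log2 of 0.28 (SE 0.16, adjusted p = 0.260) and Clec4g by 0.27 (SE 0.15, adjusted p = 0.228). On 500 ppm Fcgr2b stood at 41.4 to 47.9 CPM and on chow at 38.3 to 47.9 CPM. Clec4g stood at 28.5 to 28.8 CPM on 500 ppm and at 23.6 to 31.7 CPM on chow. Oit3 had 27.5, 31.3 and 31.2 CPM on 2% iron and 22.6, 24.8 and 29 CPM on 50 ppm, where the groups overlapped and the log2 difference of 0.23 had an adjusted p of 0.276.

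Kdr encodes VEGF receptor 2, the main signalling receptor for VEGF-A on endothelium. Its 3 mice on 2% iron lay close together at 64.6, 61.6 and 63.8 CPM, above the 50 ppm mice at 39.5, 42.8 and 52.1 CPM. They also lay above the 500 ppm mice at 42.8, 49.5 and 50.0 CPM and the chow mice at 50.8, 42.7 and 44.6 CPM. The cellulose mice spread from 47.2 and 51.5 to 83.02 CPM. The log2 difference of 2% iron from 50 ppm was 0.50 (SE 0.17, adjusted p = 0.0685, edgeR), from 500 ppm 0.42 (adjusted p = 0.136) and from chow 0.46 (adjusted p = 0.0709). None of the 3 was called when all 15 mice shared 1 estimate of spread. With only the 2 groups in the fit, the adjusted p was 0.0185, 0.0386 and 0.00935 in that order. Without cellulose replicate 3, the mouse at 83.02 CPM, it was 0.00889, 0.0261 and 0.00819. Without cellulose replicate 2, the mouse at 47.2 CPM, it was 0.048 against 50 ppm and 0.0489 against chow.

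That mouse, cellulose replicate 3, also had the highest value of its group for Stab2 (125 CPM), Fcgr2b (68.0 CPM), Clec4g (38.3 CPM), Oit3 (38.7 CPM), Flt4 (31.04 CPM) and Wnt2 (3.85 CPM). For Pecam1 it had the lowest at 64.9 CPM and for Lyve1 the lowest at 6.78 CPM. Flt4, VEGF receptor 3, had 27.8, 28.3 and 33.4 CPM on 2% iron and a wide range of 18.4, 25.5 and 38.04 CPM on 50 ppm, and its log2 difference of 0.12 had an adjusted p of 0.744. Pecam1 had 63.1, 66.2 and 78.1 CPM on 2% iron against 62.4, 56.5 and 60 CPM on 50 ppm, a log2 difference of 0.21 with an adjusted p of 0.276. Chow mice reached from 53.1 to 78.4 CPM for Pecam1 and so covered both groups.

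The secreted signals were scarce in whole liver. Wnt2 had 2.57, 2.49 and 2.39 CPM on 2% iron, 1.07, 2.42 and 2.07 CPM on 50 ppm and 0.483, 1.5 and 3.85 CPM on cellulose, and its log2 difference of 0.42 from 50 ppm had an SE of 0.50 and an adjusted p of 0.627. Rspo3, which encodes R-spondin 3, an amplifier of Wnt signalling, had 3.48, 4.09 and 4.10 CPM on 2% iron and 4.27, 6.38 and 4.64 CPM on 50 ppm. The Rspo3 groups did not overlap, and the log2 difference of -0.39 had an adjusted p of 0.259.

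**Figure D2:**
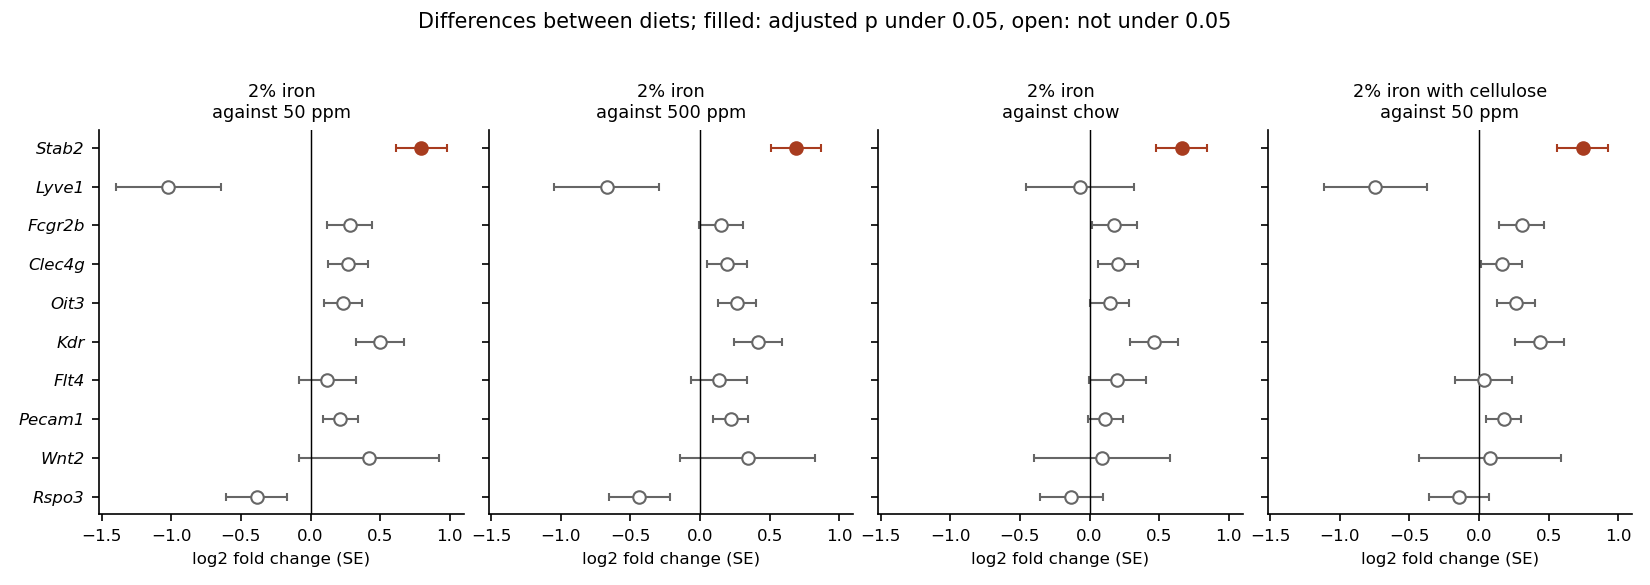
Log2 fold change with its SE (horizontal axis) of the 10 genes in 4 contrasts of the diet study from edgeR, with filled points for an adjusted p under 0.05. The filled point in each panel is Stab2, at 0.80, 0.69, 0.66 and 0.75, and the 2 contrasts against 50 ppm share their control mice while the first 3 share the 2% mice.

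Stab2 was also the 1 member called in 3 further contrasts. The background of called genes was 11.3% (6.59% higher, 4.75% lower) for 2% iron against 500 ppm, 22.8% (11.9% higher, 10.9% lower) for 2% iron against chow and 29.7% (15.4% higher, 14.3% lower) for cellulose against 50 ppm. Against 500 ppm the groups did not overlap for 6 members that were higher and 1 that was lower, beside 29.9% of all genes (16% higher, 13.9% lower). Against chow 4 members were higher without overlap, beside 40.1% of all genes (20.3% higher, 19.8% lower). For cellulose against 50 ppm 2 members were, beside 44.5% of all genes (22.4% higher, 22.1% lower). In 500 ppm against 50 ppm edgeR called no member, with 0 members at an unadjusted p under 0.05, and DESeq2 and limma called none, while 0% of all genes were called. In chow against 50 ppm edgeR called no member, with 1 member at an unadjusted p under 0.05, and DESeq2 and limma on log2(TPM + 1) called none, where 0.391% of all genes were called. Members' log2 differences ran from -0.35 to 0.13 in the first of these and from -0.96 to 0.33 in the second, with the extremes at Lyve1 on the lower side of both. Cellulose against 2% iron alone gave no call of a member by edgeR, DESeq2 or limma, 0 members at an unadjusted p under 0.05, members' log2 differences from -0.34 to 0.28, and 0.0811% of all genes called. In these 3 contrasts the groups overlapped for all 10 members, while 7.25%, 17.1% and 17.4% of all genes did not overlap.

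Other gene lists were read in the same contrast of 2% iron against 50 ppm, and their counts are over the members of each list that passed the filter on low counts. Of 15 other genes typical of sinusoidal endothelium, 4 rose and 1 fell. The largest rise was Bmp6, the hepcidin-inducing ligand, from 5.81 ± 1.79 to 28.9 ± 3.38 CPM (4.96-fold, log2 2.31, SE 0.24, adjusted p = 1.27e-04), and the fall was Fcgrt, the neonatal Fc receptor, at a log2 of -0.35 (adjusted p = 0.0321). Stab1, the sister gene of Stab2, differed by a log2 of 0.51 and was not called (adjusted p = 0.0920), and Bmp2 differed by 0.16 (adjusted p = 0.755). Of 16 genes of all endothelium, 3 rose and 1 fell, led by the junction gene Esam (log2 1.09, adjusted p = 0.00290), with Clec14a as the fall (log2 -0.71, adjusted p = 0.0253). Of 14 genes of large-vessel, lymphatic or capillary-type endothelium, 3 rose, and Ly6a rose most (log2 2.76, adjusted p = 1.94e-04). Wnt9b, a Wnt ligand of central vein endothelium, was at 0.256 CPM on 2% iron and 0.709 CPM on 50 ppm (adjusted p = 0.192).

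Among 14 tested ligands, receptors and partners of the VEGF and angiopoietin pathways, 1 was called, and it was Vegfa, the main KDR ligand, which rose from 131 ± 16.9 to 206 ± 23.97 CPM (log2 0.65, adjusted p = 0.0343). With limma on log2(TPM + 1) no gene of this list was called, Vegfa included, and DESeq2 called 3. Flt1, VEGF receptor 1, differed by a log2 of 0.30 (adjusted p = 0.297). Of 19 genes of the Wnt pathway and its targets in hepatocytes around the central vein, 6 fell, at a list median of -0.49 on the log2 scale. Sp5, a Wnt target, fell most (log2 -2.14, adjusted p = 0.0221), at a low level, from 2.55 ± 1.10 to 0.570 ± 0.0331 CPM. Lgr5, the receptor for R-spondins, fell by 1.37 on the log2 scale (adjusted p = 0.0173), and the target Axin2 differed by -0.70 (adjusted p = 0.159). These falls stood beside Wnt2 and Rspo3, which did not pass the test. Limma on log2(TPM + 1) called 4 genes of the Wnt list and DESeq2 7. In the lists of other sinusoidal, all-endothelial and large-vessel genes limma called 5, 3 and 1, and DESeq2 5, 5 and 3.

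Markers of other liver cells moved in the same mice. All 12 Kupffer cell and macrophage markers rose in 2% iron against 50 ppm, with a list median of 1.62 on the log2 scale and Marco highest at 3.23. Their summed level was 760 to 831 CPM in the 2% mice, 830 to 1230 CPM with cellulose, 187 to 330 CPM on 50 ppm, 174 to 354 CPM on 500 ppm and 214 to 263 CPM on chow, and none of the 12 was at 0. The split between diets for this sum is the same as for Stab2. All 16 listed other sinusoidal genes summed to 1210 to 1358 CPM on 2% iron and 1227 to 1590 CPM with cellulose. On the other diets they reached at most 1129 CPM, the same split. Hepatocyte markers also split so, at 99450 to 107500 and 98800 to 107400 CPM against at most 95890 CPM. The Wnt list's sum split the other way, at most 4991 CPM on the 2% diets and at least 5974 CPM elsewhere. The part of these sums in the Stab2 result was not tested. The summed level of the 16 genes of all endothelium was 361 to 399 CPM on 2% iron and 338.3 to 519 CPM with cellulose. It was 219 to 366 CPM on 50 ppm, 298 to 321 CPM on 500 ppm and 282 to 318 CPM on chow. The 2% groups overlapped with the 50 ppm group and lay above the 500 ppm and chow groups. In 2% iron against 50 ppm, 12 of these 16 genes had a positive log2 difference. Their median was 0.33, beside 0.25 for the members and 0.10 for the 15 other sinusoidal genes tested, of which 11 were positive. A summed level is weighted to the more abundant genes of its list. Of 12 stellate cell markers 1 rose and of 10 hepatocyte markers 1 rose and 1 fell, while of 5 platelet and neutrophil markers 1, Pf4, rose. With limma on log2(TPM + 1) no stellate and no platelet or neutrophil marker was called in this contrast. Of the other contrasts in which Stab2 was called, 2% iron against chow and cellulose against 50 ppm had more such calls. In 2% iron against 500 ppm, edgeR called 1 of 12 stellate markers and 0 of 5 platelet and neutrophil markers. In 2% iron against chow edgeR called 9 of the 12 stellate markers higher (list median 0.72 on the log2 scale). Their summed level was 423 to 550 CPM on 2% iron and 267 to 309 CPM on chow. These markers were also lower on chow than on 50 ppm. In chow against 50 ppm 0 of the 12 had a positive log2 difference, and the list median was -0.52. For 8 of the 12 these groups did not overlap, while edgeR called 0, DESeq2 1 and limma on log2(TPM + 1) 0. In cellulose against 50 ppm all 5 platelet and neutrophil markers tested rose (list median 4.69), with a summed level over 8 markers of 10.9 to 55.7 CPM against 1.91 to 2.88 CPM, where Gp9 was at 0 in all 3 mice on 50 ppm. The part of these markers in the Stab2 result was not tested. In 2% iron against 50 ppm, of 5 lymphocyte and 4 cholangiocyte markers edgeR called 0, with 0 at an unadjusted p under 0.05 and 0 called by DESeq2 or limma.

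The panel showed how far each gene varied between strains on the same iron-rich diet. Over 114 strains the SD of log2 CPM was 0.97 for both Stab2 and Lyve1, 0.68 for Wnt2 and between 0.38 and 0.50 for the other 7. Set against the SD between mice on the same diet, pooled over the 5 diets, the ratio was 3.93 for Stab2, and 97.6% of 13410 genes had a smaller ratio. The ratio was 2.73 for Oit3, 2.72 for Pecam1, 2.07 for Kdr, 1.83 for Lyve1 and 1.02 for Wnt2, beside a median of 1.66 over all genes. The SD between mice comes from C57BL/6J alone. Within the 2% diets, with and without cellulose, it was larger for Stab2 (0.288 against 0.246 over the 5 diets) and Kdr (0.310 against 0.231). It was also larger for Wnt2 (0.934 against 0.669), Fcgr2b, Clec4g and Oit3, and smaller for Lyve1, Flt4, Pecam1 and Rspo3. For Wnt2 the SD over strains, 0.68, was below the SD within the 2% diets.

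**Figure D3:**
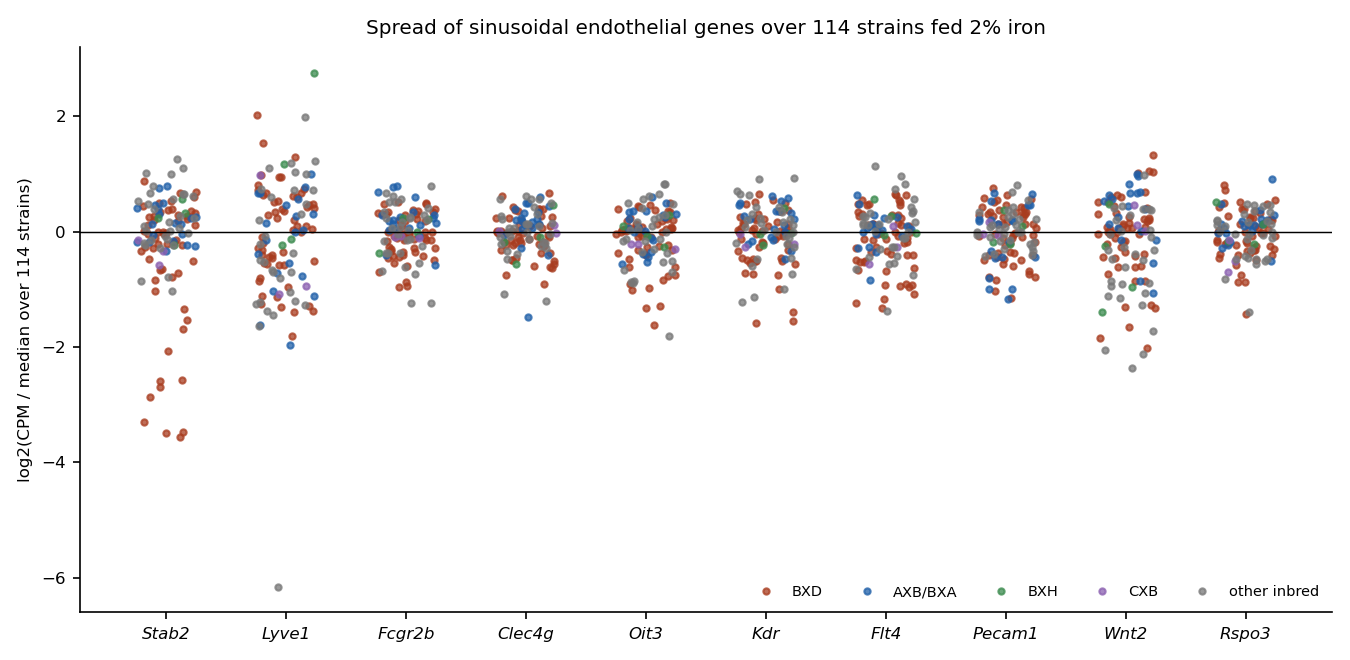
Log2 of CPM over the gene's median (vertical axis) for each of 114 strains, by gene and colored by strain family. Stab2 has a tail more than 1 log2 unit below its median, made of BXD strains and, at its upper edge, C57BLKS/J. For Lyve1 the strain CE/J stands far below all others.

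Stab2 ran from 7.68 CPM in BXD18/TyJ to 215 CPM in NOD/ShiLtJ around a median of 90.6 CPM. A mixture of 2 normal curves separated 12 low strains from 102 others (Ashman's D of 4.02, where values above 3 were taken as separate), and all 12 were BXD strains. They were BXD18/TyJ at 7.68, BXD43/RwwJ at 8.07, BXD34/TyJ at 8.14, BXD100/RwwJ at 9.21, BXD68/RwwJ at 12.4, BXD67/RwwJ at 14.01, BXD8/TyJ at 14.99, BXD51/RwwJ at 15.3, BXD75/RwwJ at 21.6, BXD5/TyJ at 28.2, BXD69/RwwJ at 31.3 and BXD36/TyJ at 35.9 CPM. The next strains upward were BXD29/Ty at 44.4 and C57BLKS/J at 44.6 CPM, so the gap at the edge was small. The other 44 BXD strains had a median of 90.6 CPM, and no strain of the other families was below 44.6 CPM. Both parents of the BXD family were high, with C57BL/6J at 110 and DBA/2J at 106 CPM. The SD of log2 CPM was 1.19 in BXD and 0.33 in AXB/BXA.

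The 12 strains are described here by their values, since they were chosen by them. Their Kdr values ran from 32.2 to 76.9 CPM, ranks 6 to 86 of 114 from the lowest, and their Fcgr2b values from 34.04 to 71.3 CPM, ranks 7 to 98. Pecam1 lay between ranks 9 and 83, Oit3 between 5 and 84 and Lyve1 between 10 and 99. In order of rising Stab2, the 12 strains held ranks 8, 85, 6, 9, 23, 73, 36, 86, 48, 29, 46 and 26 for Kdr. In the same order they held ranks 12, 82, 7, 6, 31, 46, 43, 70, 39, 27, 54 and 19 for Clec4g and 9, 19, 11, 10, 71, 27, 49, 83, 14, 43, 28 and 60 for Pecam1. For these 3 genes most of the 12 strains stood in the lower part of the panel, and some stood above its middle. Among the 102 other strains, Stab2 went with Kdr at r = 0.626 (Spearman's rho 0.613), with Oit3 at 0.578, with Fcgr2b at 0.545 and with Flt4 at 0.518 (permutation p = 1e-05 for each r, the smallest 100000 resamples can give, adjusted to 3.67e-05 over 22 relations). With the mean of the 16 genes of all endothelium r was 0.571 and with Bmp6 0.502. Within the 12 low strains, the relation with Fcgr2b was the 1 of 11 that passed (r = 0.701, adjusted p = 0.0271). Both sets of strains were cut by Stab2 itself, which narrows its range. The resamples also treated related strains as exchangeable, so these p-values are part of the description only.

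**Figure D4:**
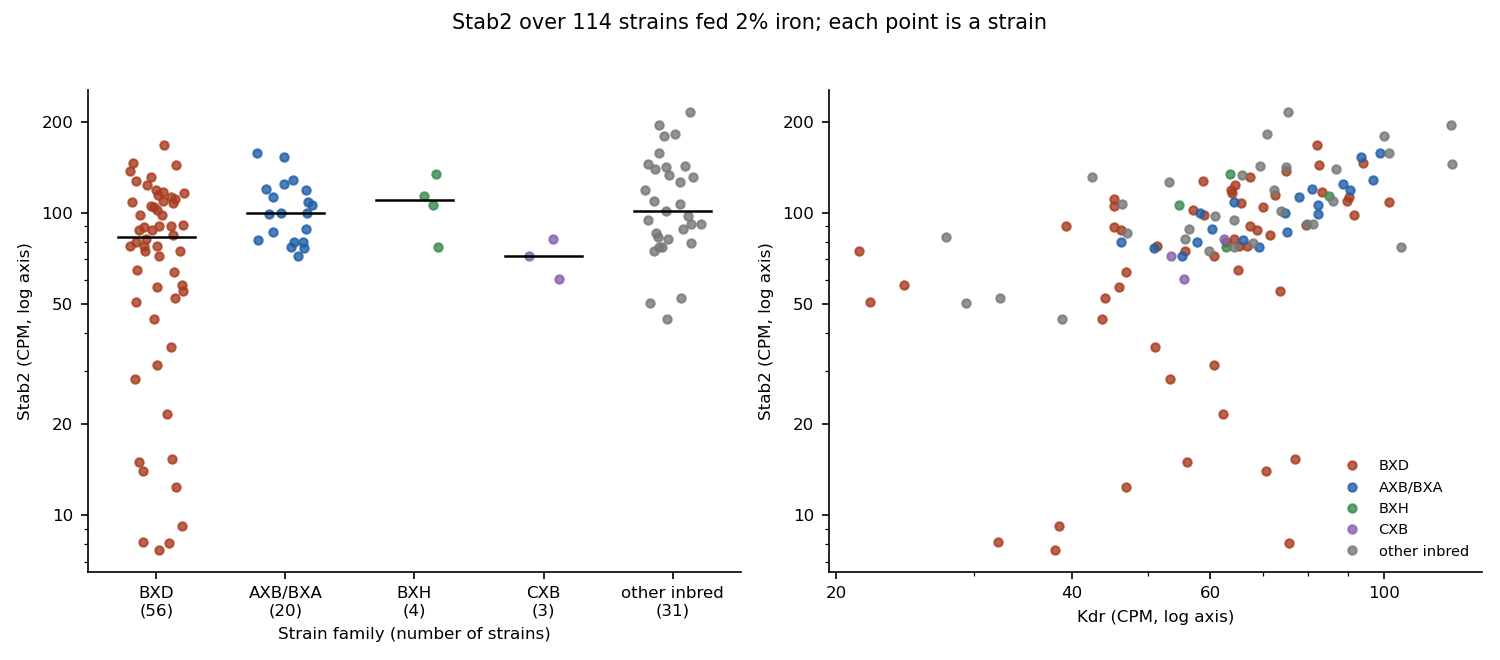
Stab2 in CPM on a log axis for each strain, by strain family with the median as a line (left) and against Kdr in CPM on a log axis (right). The 12 lowest strains, 7.68 to 35.9 CPM, are all BXD, and their Kdr values reach from 32.2 to 76.9 CPM.

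Lyve1 ran from 0.0896 CPM in CE/J, which is 1 count, to 42.9 CPM in BXH2/TyJ, with a median of 6.37 CPM. The strain next above CE/J was BXA4/PgnJ at 1.63 CPM. CE/J was also low for Kdr (29.3 CPM, rank 5 of 114) and Rspo3 (1.61 CPM, rank 2) but had 65.5 CPM of Pecam1 (rank 78) and 50.3 CPM of Stab2 (rank 15). Of the panel's parents, DBA/2J had 2.75 CPM, C57BL/6J 7.36, A/J 4.94, C3H/HeJ 4.54 and BALB/cByJ 3.64 CPM.

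Fcgr2b, whose promoter variants are known from autoimmune-prone strains, ran from 23.4 CPM in KK/HlJ to 95.6 CPM in NON/ShiLtJ. Among such strains NZB/BlNJ had 79.1 CPM (rank 106 of 114), NOD/ShiLtJ 61.5 CPM (rank 70) and MRL/MpJ 50.6 CPM (rank 40), so they did not share a level. Of the parents, C57BL/6J had 67.2, A/J 57.8, BALB/cByJ 56.2, DBA/2J 42.7 and C3H/HeJ 36.01 CPM. Clec4g ran from 12.4 CPM in BXA12/PgnJ to 54.9 CPM in BXD33/TyJ, and NZB/BlNJ was second lowest at 15.1 CPM while it was highest of all strains for Flt4 at 81.5 CPM. Oit3 ran from 7.69 CPM in PL/J to 48.02 CPM in AKR/J, with DBA/2J at 14.99 CPM (rank 10) and C57BL/6J at 33.1 CPM (rank 91).

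Kdr ran from 21.4 CPM in BXD28/TyJ to 122 CPM in AKR/J, with 86.1 CPM in C57BL/6J and 46.3 CPM in DBA/2J. Flt4 ran from 14.2 CPM in PL/J to 81.5 CPM in NZB/BlNJ, Pecam1 from 25.1 CPM in AXB19/PgnJ to 98.7 CPM in C58/J, Wnt2 from 0.452 CPM in PL/J to 5.81 CPM in BXD22/TyJ, and Rspo3 from 1.57 CPM in BXD18/TyJ to 7.99 CPM in BXA12/PgnJ. The low ends were shared by few strains. PL/J and BXD28/TyJ were each among the 5 lowest for 6 members, and Fcgr2b, Clec4g, Oit3, Kdr and Flt4 were among the 6 in both. BXD12/TyJ and BXD31/TyJ were among the 5 lowest for 5 members each. At the other end C58/J was among the 5 highest for 5 members, Stab2, Oit3, Kdr, Flt4 and Pecam1.

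BXD and AXB/BXA, the largest families, have C57BL/6J as a common parent, and the strain was the replicate in their comparison. Fcgr2b was lower in BXD, at 53.9 ± 13.3 CPM (SD, n = 56), than in AXB/BXA, at 65.3 ± 15.4 CPM (SD, n = 20), a log2 difference of -0.28 (SE 0.09, adjusted p = 0.0341, edgeR). This was the 1 member of 10 called, where 11.6% of 13794 genes were (6.62% higher, 5.02% lower), and the family ranges overlapped. The call was lost with limma on log2(TPM + 1) (adjusted p = 0.0792), on log2(TPM + 0.1) (0.0798) and with substrains left out (0.0646). Kdr differed by -0.27 (adjusted p = 0.0999), Clec4g by -0.20 (0.142), Wnt2 by -0.30 (0.231) and Stab2 by -0.40 (0.250), none of them called. Oit3, Flt4 and Rspo3 differed by -0.16, -0.14 and -0.13, Lyve1 by 0.18 and Pecam1 by 0.02, each with an adjusted p of at least 0.370.

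Over the 114 strains the members rose and fell together to very different degrees. Correlations used log2 CPM, 2-sided permutation p-values from 100000 resamples and Benjamini-Hochberg adjustment within each set of relations, and Stab2 was left out of pooled values because its strains fell into separate clusters. The genes of each pair share the library, its depth and the piece of liver. Strains of a family share parents, and the resamples treated strains as exchangeable, so the p-values take no account of relatedness between strains. Correlations were not recomputed without substrains. Of 36 pairs of the 9 other members, 25 passed for Pearson's r and 24 for Spearman's rho. The closest pair was Oit3 and Kdr (r = 0.902, rho = 0.861, adjusted p = 3e-05 and 3.27e-05), which stood at r = 0.922 within BXD, 0.783 within AXB/BXA, 0.916 within the other inbred strains and 0.888 without the 2 strains farthest from the median of Oit3. Kdr and Flt4 followed at r = 0.834 (rho = 0.820), and Fcgr2b and Oit3 stood at 0.812 (rho = 0.770). Clec4g and Pecam1, the 2 most abundant per length in the diet study, had values near 0 (r = 0.0170, rho = -0.00943, adjusted p = 0.856 and 0.920). Within families the pairs that passed for r numbered 29 in BXD, 6 in AXB/BXA and 11 in the other inbred strains, which differ in number of strains.

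The mean of the 16 genes of all endothelium, none of them a member, correlated with the 9 members to unequal degrees. Kdr was at r = 0.886 (rho = 0.873, adjusted p = 1.29e-05), Oit3 at 0.878, Flt4 at 0.851, Fcgr2b at 0.735 and Clec4g at 0.517. Pecam1 was at 0.437 (rho = 0.436), Rspo3 at 0.402, Lyve1 at 0.370 and Wnt2 at 0.245. All 9 passed over 114 strains, as did 9 within BXD, 4 within AXB/BXA and 6 within the other inbred strains, and 8 passed without the 2 farthest strains. For Pecam1, a gene of all endothelium itself, r was 0.571 within BXD, 0.281 within AXB/BXA and 0.371 within the other inbred strains, and the last 2 did not pass (adjusted p = 0.298 and 0.0518).

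**Figure D5:**
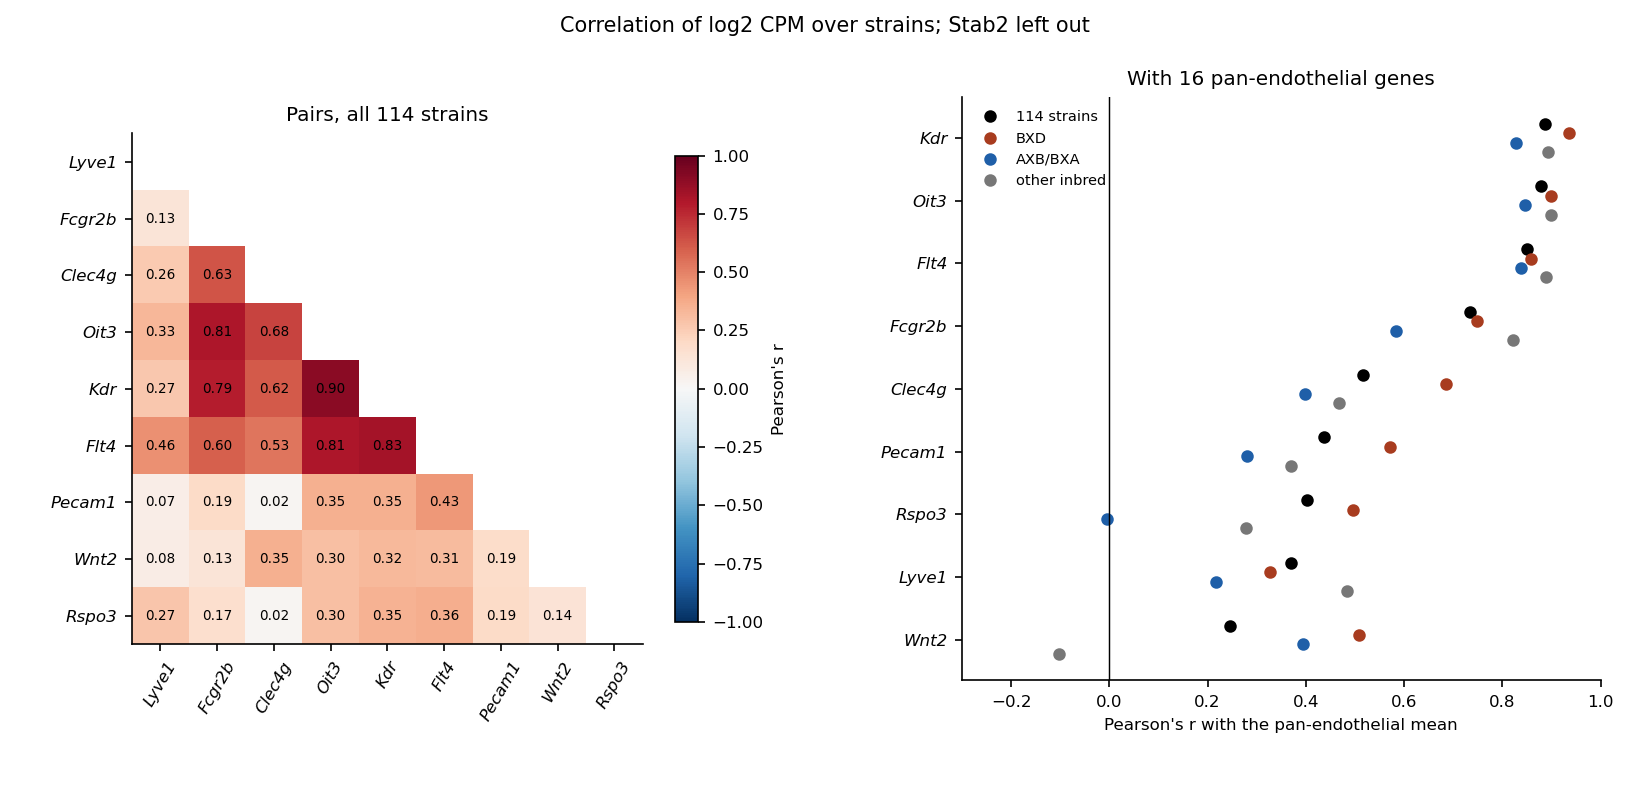
Pearson's r of log2 CPM between pairs of 9 genes over 114 strains (left, colors from -1 to 1) and of each gene with the mean of 16 pan-endothelial genes, over all strains and within 3 families (right). Oit3, Kdr, Flt4 and Fcgr2b form the block of high r, and Wnt2 has the lowest r with the pan-endothelial mean at 0.245.

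Bmp6, the endothelial ligand that answers iron, followed the same members. It went with Oit3 at r = 0.828 (rho = 0.763, adjusted p = 1.8e-05 for both), with Kdr at 0.807, Fcgr2b at 0.740, Flt4 at 0.649 and Clec4g at 0.520. Within families the relation with Oit3 was 0.850 in BXD, 0.754 in AXB/BXA and 0.829 in the other inbred strains, and it was 0.785 without PL/J and BXD28/TyJ, the 2 strains farthest from the median of Bmp6. In total 8 of 9 members passed, and Lyve1 did not (r = 0.179, rho = 0.139, adjusted p = 0.0563 and 0.139). For r, Lyve1 passed with log2(TPM + 1) (r = 0.235, adjusted p = 0.0128), with a prior count of 0.5 (0.186, 0.0477) and without the BXD65/RwwJ library (0.190, 0.0438).

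Wnt2 and Rspo3 were set against 8 targets of Wnt signalling in hepatocytes around the central vein, 16 relations in all, of which 8 passed over the 114 strains. Wnt2 held 7 of them: Axin2 at r = 0.502 (rho = 0.454, adjusted p = 4e-05 and 8e-05), Cyp2e1 at 0.476, Glul at 0.459, Cyp1a2 at 0.416, Oat at 0.397, Lgr5 at 0.312 and Rnf43 at 0.256. Rspo3 passed with Oat alone, at r = 0.226. These relations did not hold within every family. None passed within the 56 BXD strains, where Wnt2 and Axin2 stood at r = 0.296 with an adjusted p of 0.170, and none within AXB/BXA, where they stood at 0.347 with an adjusted p of 0.666. Within the other inbred strains 4 passed, all with Wnt2: Cyp1a2 at 0.590, Glul at 0.567, Axin2 at 0.564 and Cyp2e1 at 0.560. When NZW/LacJ and PL/J, whose Wnt2 lay farthest from its median, were left out, its r with Axin2 over the panel was 0.475.

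Among 13892 genes, those with the pattern most like each member's over the 114 strains were ranked by Pearson's r of log2 CPM, as a description. Kdr was nearest to Ptprb (0.927), the endothelial phosphatase VE-PTP, and Adgrl4 (0.903), an adhesion receptor of endothelium, and both were also next to Oit3 (0.9004 and 0.855). Flt4 was nearest to Aqp1 (0.873), C1qtnf1 (0.850) and Adgrf5 (0.838), and Clec4g to Plxnc1 (0.708), Ptprb (0.690) and Eng (0.690). Fcgr2b was nearest to Oit3 (0.812), Kdr (0.789) and Fam171a1 (0.771). Rspo3 was nearest to Ntn1 (0.619), S1pr3 (0.613) and Dcn (0.611), of which Dcn is a gene of stellate cells and fibroblasts, and Wnt2 to Olfm1 (0.548), Sgk2 (0.542) and Bmp2 (0.518). Pecam1 had Vmn1r13 (0.799), Bmt2 (0.781) and Pak2 (0.755) as its nearest genes. Lyve1 had Pigm (0.481), Fem1c (0.463) and Flt4 (0.459), and Stab2, over all 114 strains with both clusters, had Arhgap23 (0.507), Icam2 (0.504) and Ackr2 (0.495).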

How the data were processed

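Liver RNA of 130 male mice was analysed, 15 in the diet study and 115 in the panel. The authors deposited estimated counts per gene, made with kallisto 0.46 on mm10 per the submitters' processing notes, and TPM per gene, scaled by the authors to transcript length and library total. The strand setting is not given in the sources used here. Estimated counts were rounded to whole numbers. Symbols came from GENCODE M21 (34845 of 35274 diet and 35612 of 35711 panel identifiers matched).

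Single genes were tested with edgeR 4.0.16 in R 4.3.3 (quasi-likelihood test, TMM, filterByExpr, Benjamini-Hochberg over all genes), the 5 diets in 1 fit with 7 contrasts, and BXD against AXB/BXA with the strain as replicate. Tests were two-sided, and 3 mice against 3 cannot give an exact permutation p below 0.1, so no such test was run. On simulated counts for 2% iron against 50 ppm (12707 genes), all changed genes of 4-fold size (100%) and 61% of 2-fold size were recovered. The simulation gave every gene the same spread, changed only genes above a minimum mean count and fitted the 2 groups alone. These shares are therefore not the power of the tests reported here. The libraries' depth limits Wnt2 and Rspo3 most. Correlations used log2 CPM with a prior count of 2 over 114 strains, the 2 mice of 129X1/SvJ averaged, in Python 3.11.15 with scipy 1.17.1 and scikit-learn 1.9.0. A gene's strains counted as separate clusters at an Ashman D over 3 with a BIC gain over 10, and 3 or more strains a cluster.

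Alternatives tried: no filter on low counts, a minimum of 10 counts in every library, RLE factors, only the 2 groups compared, DESeq2 1.42.0, limma 3.58.1 on log2(TPM + 1) and log2(TPM + 0.1), each mouse left out, substrains left out and the BXD65/RwwJ library left out. Members and gene lists were chosen with earlier results of these data known. All members, the parent strains, the lowest and highest strain of each member, its 3 most similar genes and, per list, the largest called rise and fall are named by rule, with Bmp6, Bmp2, Flt1, Vegfa, Wnt9b and Axin2. Any other gene or strain was picked on its values.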

Additional observations from a re-analysis of the deposited data

How the results depend on the processing

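The count of members called stayed at 0 under all alternatives run in 500 ppm against 50 ppm, chow against 50 ppm and cellulose against 2% iron. In the other 5 comparisons it was 1 and moved as follows. In 2% iron against 50 ppm it was 2 with DESeq2 (Stab2 and Lyve1) and 2 with only the 2 groups compared (Stab2 and Kdr), and 1 to 2 with 1 mouse left out. In 2% iron against 500 ppm it was 0 with limma on log2(TPM + 1), 0 with limma on log2(TPM + 0.1), 2 with only the 2 groups compared and 0 to 2 with 1 mouse left out. In 2% iron against chow it was 2 with only the 2 groups compared and 0 to 2 with 1 mouse left out, and in cellulose against 50 ppm it was 1 to 2 with 1 mouse left out. There Kdr was called without cellulose replicate 2 (adjusted p = 0.0267) and Lyve1 without 50 ppm replicate 1 (0.0457). In BXD against AXB/BXA it was 0 with limma on log2(TPM + 1), 0 with limma on log2(TPM + 0.1) and 0 with substrains left out. The cause of these moves was not tested. Stab2 kept its direction under all 22 alternatives of each of its 4 called contrasts, at log2 changes of 0.68 to 0.96 against 50 ppm. Signs turned only where no call stood: Flt4 in 2% iron against 50 ppm ran from -0.10 (without 50 ppm replicate 1) to 0.44 with 1 mouse left out. Lyve1 in 2% iron against chow was 0.11 with limma on log2(TPM + 1), 0.14 with limma on log2(TPM + 0.1), and ran from -0.35 to 0.15 over its alternatives, with 0.07 without 2% replicate 1, 0.03 without 2% replicate 2 and 0.15 without chow replicate 3. Pecam1 in BXD against AXB/BXA was -0.0013 without the BXD65/RwwJ library. No count of correlations that passed moved by more than 1.5 times under the alternatives over the whole panel. TPM settings raised the median of all genes by 0.10 and 0.14 in 2% iron against chow and by 0.11 and 0.14 in cellulose against 50 ppm. No paired analysis was possible because the labels give no replicate numbers. Wnt2, at 6 to 50 counts in a diet library, is limited most by depth.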
